A study of Mus musculus with 4 samples.

Results

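The clustered protocadherin genes are 58 genes on mouse chromosome 18 that lie in 3 tandem clusters, chosen here by position and by a gene symbol beginning with Pcdha, Pcdhb or Pcdhg. The alpha cluster holds 14 of them (chromosome 18, 36930285 to 37188897 in mm10), the beta cluster 22 (37264998 to 37521419) and the gamma cluster 22 (37661775 to 37841873). They are 58 of 21632 genes whose start regions were read from the same files. The member Pcdhgb8 is annotated as a transcribed pseudogene, and the other 57 as protein-coding.

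The data are whole-genome bisulfite sequencing of mouse embryonic stem cells in 2 groups of 2 libraries. All cells carried the Ogt fl/fl genotype and were grown with LIF and serum replacement on mitomycin C-treated fibroblast feeders. The Ogt iKO cells received 4-OHT, which induces loss of Ogt, for 6 days and were sorted for YFP, whereas the control cells received no 4-OHT, so that the knockout, the drug and the YFP gate cannot be told apart. Both groups were sorted as viable cells and, with antibodies to CD90.2 and CD326, away from the feeders. Ogt encodes the transferase that attaches O-GlcNAc to nuclear and cytoplasmic proteins, and the series asks how its loss and its link to TET1 bear on DNA methylation. Bisulfite sequencing reads 5-methylcytosine and 5-hydroxymethylcytosine alike, so a methylation level here is the percentage of reads at CpGs that carry either mark. The labels do not say that replicates were separate cultures, so the tests measure the spread between these libraries only, which may be technical.

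Clustered protocadherins are cell adhesion proteins of the nervous system, where each neuron uses a small, variable set of them as an identity tag. In the alpha and gamma clusters every variable exon has its own promoter and codes for the extracellular part of the protein, and it is spliced to constant exons shared by the whole cluster. The beta genes have a single exon and no constant region. Promoter choice is known to involve CTCF, cohesin and DNA methylation of the promoter and exon, with Dnmt3b setting much of the methylation, and the C-type isoforms at the ends of the alpha and gamma clusters are regulated apart from the others.

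Across the genome, pooled methylation of the autosomes and X was 65.5% and 63.3% in the iKO libraries, against 70.3% and 73.8% in the control libraries, at a mean depth of 3.35 to 4.04 reads per listed CpG. The start region of Ogt itself had 1.95% and 0.417% in iKO and 1.30% and 0.493% in control libraries, which does not check its deletion. The member gene regions, from 1000 bp before to 2500 bp after each gene start, were covered by 2.77 to 3.33 reads per CpG, which left 107 to 856 read observations per gene and library. With 2 libraries a group, an exact permutation test cannot give a 2-sided p below 0.33, so single values below are set against the pooled SD of the groups.

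The 3 clusters held methylation in the same broad pattern in all 4 libraries, with low CpG-dense blocks at the exons and methylated DNA between them. The clusters were cut into bins of 1 kb, and bins with at least 20 listed CpGs were called islands and the rest spacers. The classes rest on the number of CpGs alone. CpG-poor stretches of exons therefore count as spacers, as in Pcdhb9, with 4 listed CpGs in each 500 bp of its first 1000 bp. There were 44 alpha, 43 beta and 60 gamma island bins, of which 135 of 147 in all overlapped a member's start region. In the control libraries the gamma islands had a level of 18.8% ± 0.353 (SD, n = 2), the alpha islands 27.4% ± 0.0693 and the beta islands 40.2% ± 1.19, against 59.1% to 67.9% in the spacers of the 3 clusters.

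Alpha island methylation was 20.7% and 19.1% in the iKO libraries, against 27.3% and 27.4% in the controls. Beta islands had 33.4% and 33.1% in the iKO libraries, against 39.4% and 41.1% in the controls. Gamma islands had 17.0% and 16.2% in the iKO libraries, against 18.5% and 19.0% in the controls. In each cluster both iKO libraries lay below both control libraries. The iKO minus control difference was -7.43 points in alpha (pooled SD 0.794), -6.96 in beta (0.856) and -2.19 in gamma (0.475), each with an exact permutation p = 0.33, the smallest available. Weighting every CpG evenly instead of every read gave -5.83, -7.79 and -3.35 points, and gamma remained the cluster with the smallest island difference. With at least 5 reads in every library, 11 alpha, 7 beta and 19 gamma island CpGs remained. The differences were then 0.0134, -16.2 and -0.487 points, and gamma was no longer the smallest. Gamma islands gave -1.32 points where only bins of 30 listed CpGs counted as islands. CpG-dense bins across the genome differed by -5.93 points, and those of chromosome 18 by -5.95, at mean control levels of 45.2% and 46.7%, above those of the islands. Among CpG-dense bins with a mean level of 10 to 50%, the difference was -6.98 points across the genome and -5.64 in the clusters.

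The spacers were lower in the iKO libraries in all 3 clusters. Bins of the same kind differed by -8.13 points across the genome, at a mean control level of 76.9%, and by -7.96 on chromosome 18. Alpha spacers had 61.1% and 58.0% in the iKO libraries, against 64.7% and 71.1% in the controls, a difference of -8.36 points (pooled SD 3.55) that was -5.17 without control replicate 2. Beta spacers had 53.6% and 49.8% against 57.0% and 61.1%, a difference of -7.39 points (pooled SD 2.83). Gamma spacers had 51.8% and 47.8% against 58.0% and 60.3%, a difference of -9.39 points (pooled SD 2.32). The spacer differences of the 3 clusters lay within their pooled SDs of each other, and their order changed with the bin size and the libraries used. Subtracting spacer from island within each library, the gamma cluster changed by 7.20 points (pooled SD 1.84, exact permutation p = 0.33), with the groups apart, while alpha changed by 0.935 (pooled SD 3.24) and beta by 0.432 (2.15), where the groups overlapped (exact permutation p = 1). Over the 3 clusters together the change was 3.26 points (pooled SD 2.19), which was 1.75 without iKO replicate 2 and 1.68 without control replicate 2. These changes are in points and depend on the scale. As a percentage of the control mean, the iKO mean was 88.4% in gamma islands and 84.1% in gamma spacers. In alpha it was 72.9% and 87.7%, and in beta 82.7% and 87.5%. On that scale alpha, not gamma, had the widest gap between islands and spacers.

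**Figure D1:**
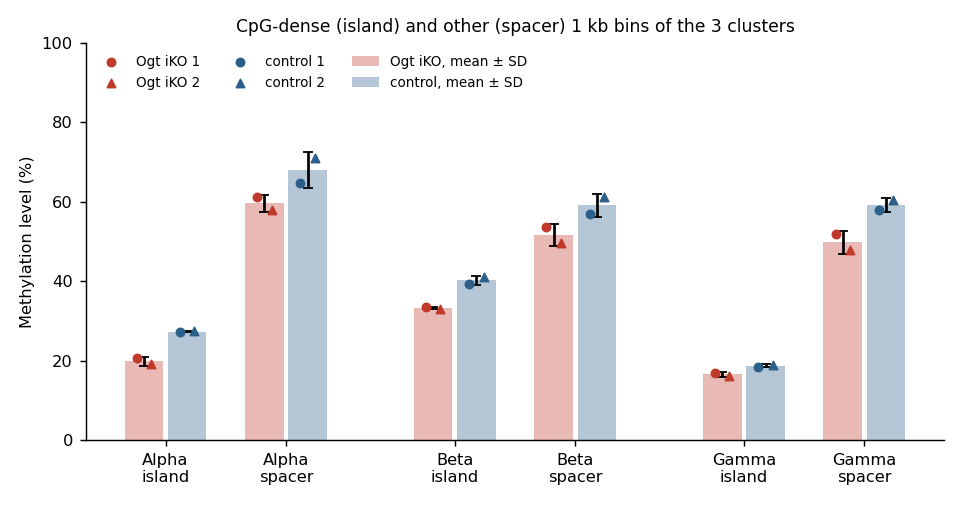
Methylation level (%, vertical axis) of the island and spacer bins of each cluster, with bars for the mean of 2 libraries, error bars for the SD and points for single libraries. Islands lie below spacers in every cluster, and the gap between iKO and control is -2.19 points in gamma islands against -7.43 in alpha islands.

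Around the gene starts all 3 clusters had a trough, which was less deep in beta. The first 250 bp of the alpha variable exons had a level of 3.17% ± 0.381 (SD, n = 2) in iKO and 6.35% ± 4.02 in control libraries, and the same stretch of gamma exons 1.67% ± 1.41 and 2.68% ± 0.316. With reads pooled over the 4 libraries, this stretch was under 10% in 12 of 14 alpha and 20 of 22 gamma genes. Only 6 of 22 beta genes were that low, and beta starts had 13.2% ± 0.78 in iKO and 19.9% ± 0.274 in control libraries. Beta genes held few CpGs there, 108 over 22 genes against 237 over the 22 gamma genes. In the 250 bp before the start beta had 8.03% in iKO and 10.4% in control libraries, and the groups overlapped. Alpha had 5.11% and 10.1% in that stretch, and gamma 3.66% and 3.75%.

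Further into the exon the levels were higher but not even. Between 1000 and 2500 bp from the start they were 21.5% in iKO and 31.2% in control libraries for alpha, 28.6% and 34.4% for beta, and 28.6% and 32.2% for gamma. The level was higher there than in the first 250 bp in 54 of 58 genes. All 3 clusters had a second trough. In beta exons the level was 59.8% in iKO and 66.1% in control libraries between 1000 and 1249 bp, and 9.83% and 13% between 2000 and 2249 bp. Alpha control levels went from 38.9% at 1000 to 1249 bp to 20% at 1500 to 1749 bp and 47.4% at 2250 to 2500 bp. Gamma control levels went from 41.5% at 1250 to 1499 bp to 20.6% at 1750 to 1999 bp and 41.0% at 2250 to 2500 bp. The beta window from 1750 to 1999 bp held 13.5 CpGs per gene, against 4.91 in the first 250 bp.

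The iKO difference was also uneven along the exon. In gamma genes the groups overlapped in the 4 windows of 250 bp from 250 bp before the start to 749 bp after it, with mean differences of -0.095, -1.02, -0.833 and -0.316 points. From 1000 to 1249 bp, where control libraries had 36.9% and 41.7%, the gamma iKO libraries had 32.4% and 29.6%, a difference of -8.27 points (pooled SD 2.74), the most negative of the gamma windows from 250 bp before the start to 2500 bp after it. In the next 4 windows the gamma groups overlapped, with -7.20, -2.50, -0.389 and -2.97 points, and over 1000 to 2500 bp as a whole gamma differed by -3.61 points (pooled SD 1.54). Alpha exons differed by -9.71 points (pooled SD 1.97) over 1000 to 2500 bp. Beta exons had -5.73 points over the same stretch (pooled SD 2.05).

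**Figure D2:**
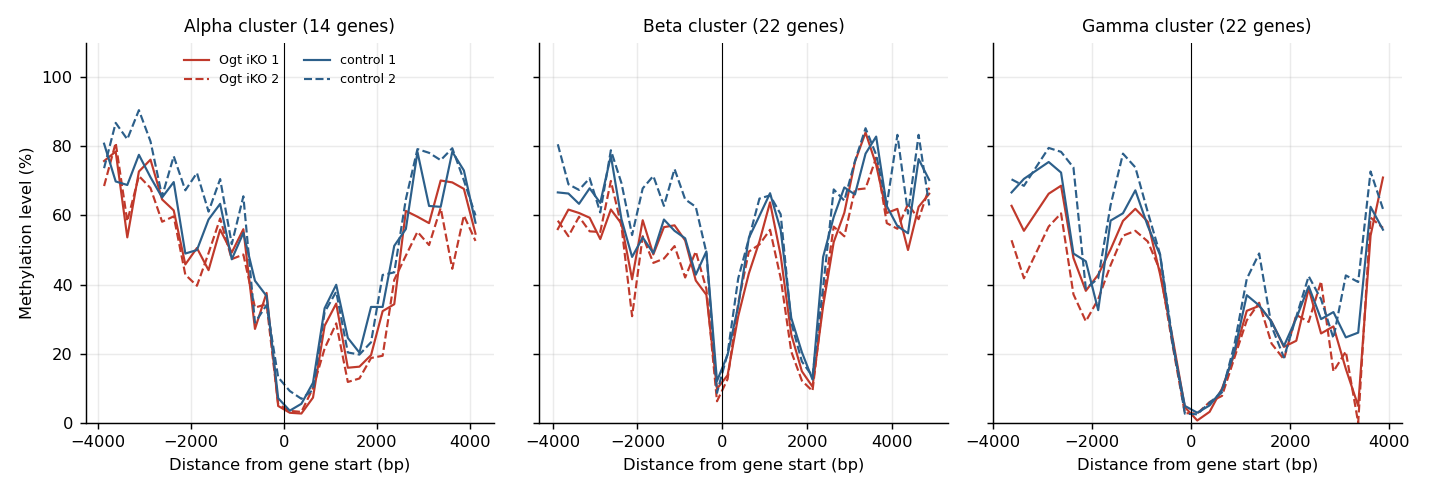
Methylation level (%) in windows of 250 bp against distance from the gene start (bp), with reads pooled over the genes of a cluster and a line per library (solid, replicate 1; dashed, replicate 2). Alpha and gamma starts form a trough under 10% in all but control replicate 2, which reaches 13.2% just before the alpha starts, and a second trough follows in each cluster, lowest in beta near 2000 bp.

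Gene by gene, 49 of 58 members had a lower mean level in iKO and 9 a higher one, so that 84.5% were lower, near the 81.2% of all gene regions. No member was called by the quasi-binomial test across 20728 gene regions (adjusted p under 0.05 and a difference of 10 points or more), a rule by which 0.0289% of all gene regions were called lower. At an unadjusted p under 0.05, the test gave 13 members lower and 0 higher, 22.4% of members against 16.1% of all gene regions lower. The other tests did not repeat this excess. At that unadjusted level, in either direction, edgeR's quasi-likelihood test gave 4 members, 6.90% against 17.4% of all gene regions, and limma on logit levels gave 3, 5.17% against 15.5%. Both iKO libraries lay below both controls in 30 of 58 members, or 51.7%, against 45.8% of all gene regions, and above both in 2, Pcdhb9 and Pcdhgb5, against 4.41%. For Pcdhb9, iKO replicate 2 lacked reads over part of the region, as given below. The median difference was -4.42 points over the members and -4.33 over all gene regions.

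A level from pooled reads gives most weight to the CpGs that happened to be read most, and at about 3 reads per CpG that mix differs between libraries. A second level was therefore taken as the plain mean over the CpGs with a read in all 4 libraries, 31 to 156 per member. With this even weighting 52 of 58 members were lower and 6 higher, beside 17677 of 20232 gene regions lower, the groups were apart with iKO lower in 36 of 58 against 55.5% of all gene regions, and none was apart with iKO higher. The median difference was then -5.35 points over the members and -4.13 over all gene regions. Averaged over genes, it was -5.45 points in alpha (pooled SD 0.516), -6.83 in beta (1.34) and -3.61 in gamma (0.422).

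**Figure D3:**
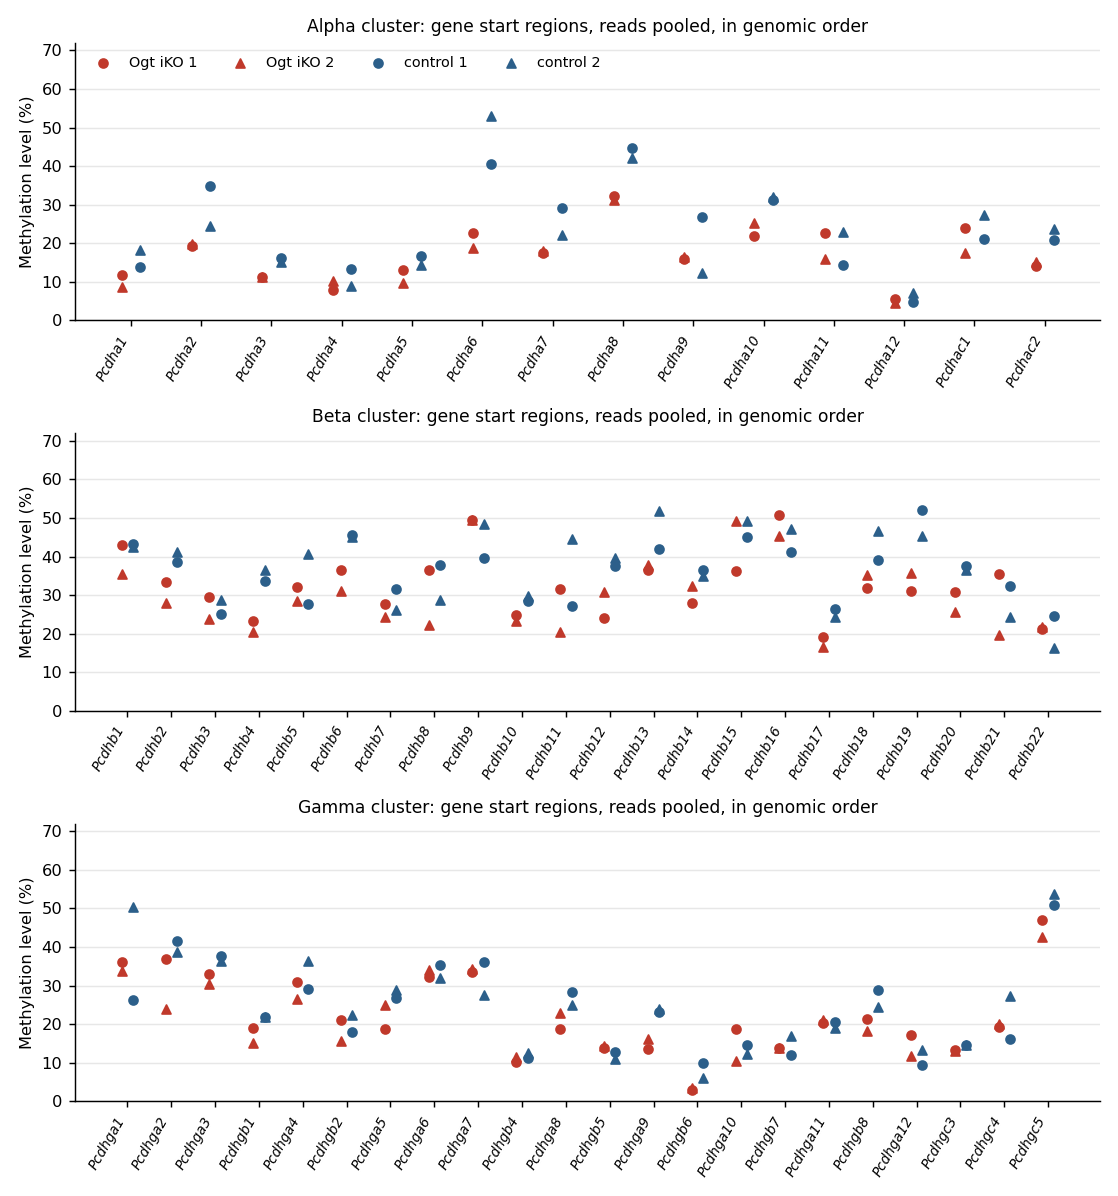
Methylation level (%) of the start region of each of the 58 genes, from pooled reads, in genomic order within each cluster, with a point per library (red, Ogt iKO; blue, control; circle, replicate 1; triangle, replicate 2). Pcdha6 shows the widest gap, and Pcdha12 and Pcdhgb6 lie near the bottom in all libraries.

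The alpha genes, whose isoforms share a cytoplasmic tail encoded by the constant exons, had pooled levels of 17.2% and 15.6% in iKO and 23.4% and 22.8% in control libraries. Of the 14 genes 13 were lower (92.9%, against 81.2% of all gene regions), 9 with the groups apart (64.3%, against 45.8%). The widest difference of any member was in Pcdha6 (chromosome 18, start at 36967625), which had 22.8% and 18.8% in the iKO libraries, against 40.7% and 53.1% in the controls. The groups were far apart and the difference was -26.1 points (pooled SD 6.52, unadjusted p = 2.11e-05, quasi-binomial test), but its adjusted p of 0.0548 missed the threshold, with a range of 0.000253 to 0.646 over the alternatives. It was called in 5 of them, which included a minimum of 40 reads (adjusted p = 0.0493) and thinning every library to the total of the shallowest (adjusted p = 0.0458), which does not equalise depth along the region. Evenly weighted CpGs gave 27.9% and 26.6% against 38.9% and 48.4%, a difference of -16.4 points. The read-through gene Gm38666 starts in the same region, so the value belongs to it as much as to Pcdha6.

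Within the Pcdha6 region depth and level both varied along the exon. The first 500 bp were at 2.80% and 1.72% in the iKO libraries and 7.14% in control replicate 1, but at 48.5% in control replicate 2 (95% Wilson interval 32.5 to 64.8, for counting error only and with CpGs of a read taken as independent). That window had 143 read observations in iKO replicate 1 and 33 in control replicate 2. The window thus entered the pooled values of the libraries with unequal weight. Both iKO libraries also lay below both controls in the 500 bp before the start, at 1.85% and 0% (75 read observations, 95% Wilson upper bound 4.87%) against 11.1% and 11.1%, and from 500 to 1000 bp, at 35.2% and 15.4% against 47.4% and 71.0%. From 1000 to 1499 bp they had 55.1% and 45.7% against 63.9% and 63.8%, and in the last window, from 2000 bp, 34.0% and 15.7% against 61.7% and 63.3%. From 1500 to 1999 bp the groups overlapped, at 31.9% and 54% against 45.7% and 38.9%. How much of the pooled difference comes from the unequal depth was not tested beyond the evenly weighted value.

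**Figure D4:**
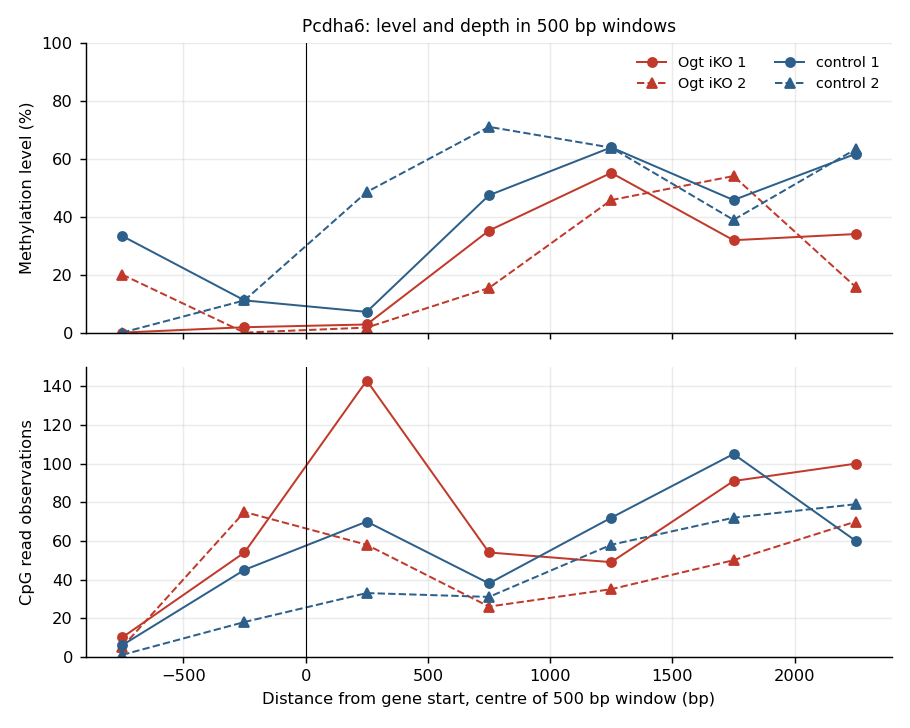
Methylation level (%, upper panel) and number of CpG read observations (lower panel) in 500 bp windows against distance from the Pcdha6 start (bp), with a line per library. Control replicate 2 stands apart in the window of the first 500 bp, where it has 33 read observations, though its first 250 bp alone were at 0%. Both controls lie above both iKO libraries in every window from 500 bp before the start on, except that from 1500 to 1999 bp.

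Pcdha8 had the highest level of the alpha genes over the 4 libraries. It had 32.4% and 31.3% in iKO and 44.7% and 42.1% in control libraries, with no overlap, a difference of -11.5 points (pooled SD 1.42, adjusted p = 0.192, quasi-binomial test) that was -20.1 within 500 bp of the start. With reads pooled over the 4 libraries its start was an exception to the low alpha trough, at 25% in the first 250 bp. By library that stretch had 0% and 12.9% in iKO and 33.3% and 29.4% in control. Pcdha12, the least methylated alpha gene, had 5.47% and 4.53% in iKO and 4.75% and 7.23% in control libraries, which overlapped, and -4.24 points under even weighting. Pcdha11 was the alpha gene with a higher mean in iKO, at 22.6% and 16.1% against 14.3% and 23.0%, a difference of 0.70 points well inside the pooled SD of 5.45.

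The beta genes, which encode proteins without the shared tail, were the most methylated group and had pooled levels of 31.5% and 29.1% in iKO and 35.9% and 36.7% in control libraries. Of the 22 genes 19 were lower (86.4%, against 81.2% of all gene regions), 11 with the groups apart (50%, against 45.8%). Pcdhb19 had 31.0% and 35.7% in iKO and 52.1% and 45.5% in control libraries, a difference of -15.4 points (pooled SD 4.09, adjusted p = 0.175, quasi-binomial test). Pcdhb4 had 23.3% and 20.5% against 33.6% and 36.6%, a difference of -13.2 points (pooled SD 2.04, adjusted p = 0.19 by the same test). For both genes the groups did not overlap, and even weighting gave -15 and -15.1 points. Within 500 bp of the start the differences were -8.15 points for Pcdhb19 and -18.02 for Pcdhb4.

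In the most and the least methylated beta genes the iKO libraries did not both lie below both controls. Pcdhb9, the most methylated beta gene, had 49.4% and 49.5% in iKO and 39.7% and 48.5% in control libraries, a difference of 5.33 points that was 1.06 under even weighting with the groups overlapping, 0.933 without control replicate 1 and 9.73 without control replicate 2. In the last 500 bp window of Pcdhb9, from 2000 bp, iKO replicate 2 had 0 reads. There iKO replicate 1 had 34.1% and the control libraries 37.5% and 31.7%, over 44, 40 and 41 read observations. The pooled level of iKO replicate 2 thus left out a stretch that was lower than the whole region in the other libraries. How far its place above both controls rests on this gap was not tested beyond the evenly weighted value. Pcdhb16 had 50.7% and 45.3% in iKO and 41.1% and 47.1% in control libraries, which overlapped. Its difference of 3.91 points became -11.7 under even weighting over 39 CpGs and -7.46 within 500 bp of the start, so its direction depended on the averaging. Pcdhb22, the least methylated beta gene, had 21.3% and 21.6% against 24.7% and 16.4%, with the control libraries on either side of the iKO pair.

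The gamma genes had pooled levels of 20.2% and 18.9% in iKO and 21.6% and 22.4% in control libraries. Of the 22 genes 17 were lower (77.3%, against 81.2% of all gene regions), 10 with the groups apart (45.5%, against 45.8%). The 12 Pcdhga and 7 Pcdhgb genes differed by -2.81 and -2.32 points. Pcdhga2 had 36.8% and 24% in iKO and 41.6% and 38.8% in control libraries, and the iKO libraries lay further from each other than the group means did, which differed by -9.79 points (pooled SD 6.57). The difference was -14.0 under even weighting, -16.2 without iKO replicate 1, -3.38 without iKO replicate 2 and 1.11 within 500 bp of the start. Pcdhga9 had 13.6% and 16.2% against 23.3% and 23.9%, a difference of -8.73 points (pooled SD 1.32, adjusted p = 0.24, quasi-binomial test) that was -3.95 with overlapping groups under even weighting.

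Pcdhgb6, the least methylated gamma gene, had 2.99% and 3.53% in iKO and 10% and 6.14% in control libraries, a difference of -4.81 points that was -1.70 under even weighting, -2.88 without control replicate 1 and 0.0139 within 500 bp of the start. Pcdhga7 had 33.6% and 34.3% against 36.0% and 27.5%, and the control libraries enclosed the iKO pair. Pcdhga12 had 17.3% and 11.7% against 9.52% and 13.4%, which overlapped. Its difference of 3.0 points was -5.96 under even weighting and 19.2 within 500 bp of the start, so no direction held for it.

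Set against each other within each library, alpha minus gamma gene regions was -2.92 and -3.28 points in the iKO libraries, against 1.80 and 0.375 in the controls. The change was -4.19 points (pooled SD 0.733, exact permutation p = 0.33), and it was -2.73 without Pcdha6, -1.84 when evenly weighted levels were averaged over genes and -2.29 when all CpGs of the group were averaged evenly. That alpha lay above gamma in both controls rested on Pcdha6 and on pooled reads: without Pcdha6 alpha had 20.7% and gamma 22.4% in control replicate 2, and evenly weighted levels averaged over genes were 22.6% and 23.1% in the alpha controls against 24.1% and 25% in gamma. Gamma minus beta changed by 3.51 points (pooled SD 0.568), with the groups apart. That change was 3.22 when evenly weighted levels were averaged over genes, 5.68 within 500 bp of the start and 13.6 with at least 5 reads in every library. Alpha minus beta changed by -0.678 (pooled SD 0.821) and the groups overlapped (exact permutation p = 0.667).

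The 5 C-type genes, the last variable exons of the alpha and gamma clusters, had pooled levels of 19.4% and 18.7% in iKO and 20.7% and 26.6% in control libraries. Their difference of -4.60 points (pooled SD 2.95) rested largely on control replicate 2, without which it was -1.67, while it was -7.53 without control replicate 1 and -0.913 within 500 bp of the start. Evenly weighted levels averaged over the 5 genes were 21.2% and 21.7% in iKO and 23.6% and 24.2% in control libraries, a difference of -2.43 points (pooled SD 0.365) with the groups apart, and an even mean over all their CpGs gave -1.76. C-type minus the other alpha and gamma genes changed by -0.535 points (pooled SD 3.23, exact permutation p = 1), well inside the pooled SD and with the groups overlapping. It changed by 2.67 without control replicate 2 and -3.74 without control replicate 1. With evenly weighted levels averaged over genes it changed by 2.20 points (pooled SD 0.512, exact permutation p = 0.33) with the groups apart, so its direction depended on the averaging. The 5 genes ranged widely among themselves. Pcdhgc3 had 13.2% and 13% in iKO and 14.6% and 14.5% in control libraries over 186 CpGs, the most CpGs of any member. Pcdhgc5 had the highest level of any gamma gene, at 46.9% and 42.5% against 50.8% and 53.8%, over 70 CpGs. Its first 250 bp were at 26.5% with the reads of all libraries pooled, and at 20% and 0% in iKO and 35.3% and 22.2% in control libraries.

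Pcdhac2 had 14.1% and 15.2% in iKO and 21.0% and 23.7% in control libraries, a difference of -7.66 points (pooled SD 1.48, adjusted p = 0.248, quasi-binomial test) that was -1.42 under even weighting and 0.37 within 500 bp of the start. Pcdhac1 had 23.9% and 17.5% against 21.2% and 27.2%, and the groups overlapped. Pcdhgc4 had 19.3% and 20.1% against 16.1% and 27.4%, with the control libraries on either side of the iKO pair. The difference for Pcdhgc3 was -1.46 points, and it was 1.2 over the first 2500 bp of the gene and 0.267 within 500 bp of the start.

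The island bins were tested singly as well. Of 146 island bins with at least 20 reads in every library, 110 were lower in iKO, 75.3% against 79.2% of all CpG-dense bins, and 0 were called, where 0.0111% of 117472 CpG-dense bins of the genome were called lower, and 20 had an unadjusted p under 0.05 (quasi-binomial test), 13.7% against 18.7% of those bins. In 63 bins, or 43.2%, both iKO libraries lay below both controls, against 44% of all CpG-dense bins. By cluster these were 19 of 43 in alpha, 24 of 43 in beta and 20 of 60 in gamma. The difference varied with the level of the bin. Among member bins with a mean level under 10% the median difference was -0.675 points, and among those at 30 to 50% it was -10.1, beside -0.242 and -10.6 for all CpG-dense bins of the same levels.

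With bins of 15 or more listed CpGs, where 1.37% of all bins were called lower, 5 of 184 cluster bins, or 2.72%, were called. These bins were named after their values were seen. Counted from the nearest gene start, they lay at 876 bp from Pcdha6, at 1690 and 6690 bp from Pcdha7, at 33823 bp from Pcdhac2 and at -9339 bp, which is upstream, from Pcdhb2, with differences of -31.2, -22.7, -23.8, -37.0 and -24.9 points (adjusted p = 0.0320, 0.00720, 0.0485, 0.0199 and 0.0295, quasi-binomial test). In that order they held 34, 55, 35, 15 and 25 listed CpGs. Those with 20 or more were also in the main test, which called none of them (lowest adjusted p of any island bin 0.0687, quasi-binomial test). Their calls thus depended on the set of bins fitted together.

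Levels at the ends of the alpha and gamma clusters, where the constant exons lie, were also lower in iKO. The last 5000 bp of the alpha cluster (chromosome 18, 37183898 to 37188897) had 75.7% and 71.0% in iKO and 78.5% and 86.0% in control libraries over 55 CpGs, a difference of -8.92 points (pooled SD 4.41) that was -5.19 without control replicate 2. This stretch runs 1240 bp past the annotated ends of most alpha genes, 13 of which end before Pcdha6. The 5000 bp up to the most common alpha gene end (37182658 to 37187657) had 74.2% and 74.6% against 82.0% and 86.9%, a difference of -10.04 points that ranged from -12.5 to -7.58 when single libraries were left out. The last 5000 bp of the gamma cluster (37836874 to 37841873) had 38.6% and 34.0% against 52.1% and 43.1% over 78 CpGs, a difference of -11.3 points (pooled SD 5.02) that was -6.82 without control replicate 1. The groups did not overlap in any of these stretches.

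Denser regions had lower levels among the members, to a degree that differed by cluster. Over the 58 genes, CpGs per 100 bp of the region and mean level had a Spearman rho of -0.798 and a Pearson r of -0.787, and rho was -0.862 over the 22 gamma genes, -0.571 over the 14 alpha genes and -0.353 over the 22 beta genes. Pearson r was -0.829 in gamma, -0.340 in alpha and -0.554 in beta, so alpha and beta change places between the coefficients. These are descriptions across genes that share libraries, and genes are not independent replicates. Beta regions held a median of 2.29 CpGs per 100 bp, against 3.71 in alpha and 3.30 in gamma. Gene levels were alike between libraries of a group, with rho 0.877 between the iKO libraries and 0.856 between the controls. They were also alike between the groups, with rho 0.917 between the iKO mean and the control mean. The differences of equally numbered library pairs had a rho of 0.151 across genes.

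**Figure D5:**
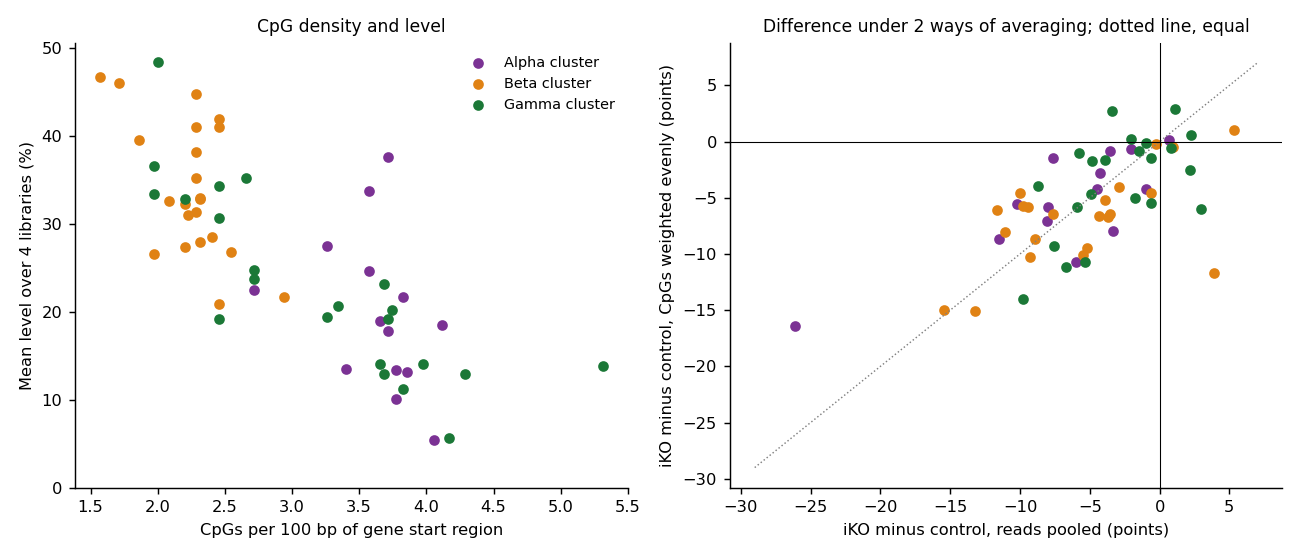
Left, CpGs per 100 bp of the start region against the mean level over 4 libraries (%) for the 58 genes, coloured by cluster, where denser regions tend to have lower levels, most clearly in gamma. Right, the iKO minus control difference (points) from pooled reads against that from evenly weighted CpGs, where Pcdha6 lies at -26.1 and -16.4 and the dotted line marks equal values.

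Genes of related function were read from the same test. Of 12 protocadherin genes outside the clusters, 5 were lower and 7 higher in iKO, 41.7% lower against 81.2% of all gene regions. Of the 12, 0 were called, where 0.0289% of all gene regions were called lower. At an unadjusted p under 0.05 there were 0 of the 12 by the quasi-binomial test, where 16.1% of all gene regions were lower. In either direction edgeR gave 0 of the 12, against 17.4% of all gene regions. Limma on logit levels gave 1, or 8.33%, against 15.5%. The median difference of the 12 genes was 0.166 points at a median level of 7.72%, beside -4.42 at 26.7% for the clustered members, and its sign was not stable. Even weighting gave 7 lower, 5 higher and a median of -0.605, and the 9 genes with a known strand gave 5 lower, 4 higher and a median of -0.51. Of 21 genes for factors that act on the clusters or on CpG methylation, 17 were lower and 4 higher, 81.0% lower and near the share of all gene regions, and 0 were called. At an unadjusted p under 0.05 the quasi-binomial test gave 7 lower, 33.3% against 16.1% of all gene regions. In either direction edgeR gave 6, 28.6% against 17.4%, and limma on logit levels gave 7, 33.3% against 15.5%. Ctcf, whose protein binds the alpha and gamma promoters, had 0.99% and 3.46% in iKO and 2.68% and 4.13% in control libraries, which overlapped. Dnmt3b had 6.27% and 10.1% against 17.0% and 5.18%, with the controls enclosing the iKO pair. Smchd1, a silencer of the clusters, had 7.59% and 5.35% against 9.32% and 13.3%, without overlap (adjusted p = 0.312, quasi-binomial test). The widest decreases were in Nipbl, which encodes the cohesin loader, and in Dnmt3a, a de novo methyltransferase. Nipbl had 68.8% and 62.4% against 86.7% and 85.8%, a difference of -20.7 points without overlap (adjusted p = 0.114, quasi-binomial test; 0.0260 with the replicate block). Dnmt3a had 62.5% and 56.3% against 72.7% and 81.9%, a difference of -17.9 points without overlap (adjusted p = 0.280 by that test). Rad21, a cohesin subunit, had 68.9% and 69.9% against 79.7% and 85.0%, also without overlap (adjusted p = 0.194 by that test). Tet1 had 0.242% and 0.562% against 2.66% and 2.42%, without overlap (adjusted p = 0.257 by that test). For 5 of these 21 genes, which include Nipbl and Rad21, and 3 of the 12 no strand was at hand, and the region used is at the lower-coordinate end, which need not be the start.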

How the data were processed

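Per the submitters' processing notes and the names of the deposited tables, the authors aligned reads with BSMAP to mm10 and tabulated CpGs; Picard is named with no role. Further settings are not given in the sources used here. The deposited tables give, per CpG, the count of methylated reads and the count of all C or T reads, with strands merged; the estimated count (the C or T total corrected by the authors for opposite-strand variants) served as an alternative denominator. Tables were matched to samples by their names. CpG totals were 64273609 to 79929994 read observations per library.

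Gene positions came from RefSeq (GRCm38.p6). A strand was given for 17274 of 21632 genes and for none on chromosome 18, where the lower-coordinate end was used; the alpha and gamma genes, apart from Pcdha6 and Pcdhgb8, share their upper end within a few bases, so theirs is the start. Regions needed 10 listed CpGs and 20 reads in every library. Reads were fitted per feature with a quasi-binomial logistic model over all features, with dispersions moderated by limma 3.58.1 (R 4.3.3) and Benjamini-Hochberg adjustment. The robust form of that moderation was chosen on simulated data after the plain form had been run on the real data: the plain form recovered none of the simulated changed bins. edgeR 4.0.16 and limma on logit levels (0.5 reads added) were alternatives. Even weighting of CpGs per gene, the contrasts between clusters and some alternatives were added after seeing the data. Single values were tested by exact 2-sided permutation over 6 arrangements.

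Named genes are the 5 C-type genes and, in each cluster, the 2 with the largest decrease, the 2 with the smallest decrease or largest increase, and the highest and the lowest level. Members and lists were chosen with earlier results of these data known.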

Additional observations from a re-analysis of the deposited data

How the results depend on the processing

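Depth limits the values: with at least 5 reads in every library only 11 alpha, 7 beta and 19 gamma island CpGs remained, and the island differences became 0.0134, -16.2 and -0.487 points. C-type minus other alpha and gamma genes turned to 1.35 (CpGs with a read in every library), 2.85 (even mean over all CpGs), 2.20 (evenly weighted levels averaged over genes), 0.655 (within 500 bp of the start) and 0.57 points (first 2500 bp), and ranged from -3.74 to 2.67 when single libraries were left out. Under the same 5-read minimum island minus spacer was 6.33, C-type genes -11.4, C-type minus other alpha and gamma genes -11.1, alpha minus gamma -8.07 and gamma minus beta 13.6 points. The last was 5.68 within 500 bp of the start, where alpha minus gamma was -2.60. The cause was not tested.

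Member gene regions called numbered 1, Pcdha6, at a minimum of 40 reads, after thinning and with the replicate block, and 0 to 1 when single libraries were left out; a lone library was then assumed to vary like the other group. Island bins called numbered 5 at 15 listed CpGs per bin, and regulators called 1 with the block (Nipbl) and 0 to 2 when single libraries were left out (Nipbl and Wiz without iKO replicate 1). Named genes that changed direction with the window were, within 500 bp of the start, Pcdhac2 (0.37), Pcdhgc3 (0.267), Pcdhga2 (1.11), Pcdhgb6 (0.0139), Pcdhb16 (-7.46), Pcdhgc4 (2.42), Pcdha11 (-0.603), Pcdha12 (0.119) and Pcdhb22 (-0.238), and over the first 2500 bp Pcdhgc3 (1.2), Pcdha11 (-0.886) and Pcdhga12 (-0.181). Leaving out a single library turned the direction of Pcdhgc4, Pcdha12, Pcdha11, Pcdhb22 and Pcdhga7. Over all gene regions 6 were called, against 232 lower with the block, 111 without iKO replicate 1, 21 without iKO replicate 2, 10 with edgeR and 0 without very deep CpGs.

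Replicate differences of the 2 groups were not correlated (-0.056 over 20728 gene regions, -0.051 over the members). Counting error at the shallow depth of these libraries would lower such a correlation, so it cannot tell whether equally numbered libraries were paired. With the block the alpha, beta and gamma island differences were -7.43, -6.96 and -2.19 points; in this balanced design a block cannot change a difference of means, so these values say nothing about pairing. In simulation the block and limma on logit levels recovered no changed bins, so their 0 called bins say nothing. Of the recomputed values of the main comparisons 211 kept their direction and side of the threshold, 8 moved and 7 reversed. Among the 211 are differences with the block, which could not change, and differences without very deep CpGs, which equalled the main values. Others are counts of 0 called under settings that called no feature in the whole genome, such as the fits without a control replicate. Such counts say nothing about the members.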
